A study of Mus musculus with 6 samples.

Results

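Cullin-RING ligases are a large class of enzymes that attach ubiquitin to proteins, and the 106 genes described here encode their scaffolds and many of their substrate adaptors. The genes were chosen by name from a table of 14016 rows, 14015 of them with a gene symbol. They are all numbered F-box (Fbxo, Fbxl, Fbxw), cullin (Cul) and BTB-kelch (Klhl, Kbtbd) genes together with Skp1a, Skp2, Rbx1, Rnf7 and Keap1. Fbxo32, the atrophy gene atrogin-1, was left out. RNA came from quadriceps muscle 7 days after volumetric muscle loss, a surgical injury that removes a piece of the muscle, with no implant placed in the wound. There were 3 WT (C57BL/6) mice and 3 ΔdblGATA mice, labelled GATA-1 mutant. The ΔdblGATA mice carry a deletion of GATA sites in the Gata1 promoter and do not form eosinophils. The deletion is in the germline, so it was present in every cell of these animals. All 6 mice had the same injury, and no uninjured muscle was analysed here.

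The measurement used is 1 value per gene, the authors' mean of log2 CPM, the count of a gene scaled to a common library size, over the 6 libraries. It pools WT and ΔdblGATA mice and cannot show a difference between the genotypes. It has no replicate error, so no test was possible, and whether genes that stand next to each other in an order differ beyond the spread between mice is unknown. The depth of the libraries is unknown as well. In whole muscle, a low level can mean few cells of a type or little RNA per cell, and the mean does not separate them. The muscle identity of the tissue was clear, as 10 of 10 skeletal muscle markers were listed, with mean log2 CPM from 10.56 (Myh2) to 14.65 (Myh4). Of the other cells the tissue could hold, 4 of 4 fibroblast markers (5.73 to 11.75) and 5 of 6 macrophage markers (4.40 to 9.12) were listed. Of 10 eosinophil markers, 1 was analysed here, Ear2, at 0.13. Part of each member's level can come from any of these cells, and their shares were not tested.

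A cullin holds a RING protein, Rbx1 or Rnf7, at one end, and this RING protein recruits the enzyme that carries ubiquitin. At the other end the cullin holds an adaptor that picks the substrate. Cul1 binds Skp1, which in turn binds an F-box protein, whereas Cul3 binds BTB proteins directly, and most Klhl and Kbtbd proteins combine the BTB domain with kelch repeats that bind the substrate. In skeletal muscle, several of these adaptors are known for their part in sarcomere upkeep and in muscle wasting.

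The start-proximal sequences of 4 members are shown because these genes had high levels and contrasting promoters. Klhl41 and Klhl40 are muscle-enriched BTB-kelch genes, and Cul3 and Rnf7 encode widely used subunits. They were chosen after the levels had been seen. Each run holds the 250 bases before the start that RefSeq gives for the gene (GRCm38.p6), written 5′ to 3′ on the gene's own strand. Capitals mark E-box letters (CANNTG, bound by myogenic factors among many others) and a loose form of the MEF2 core (CTA, any 4 bases, TAG). With its inner bases left free, a match need not be a MEF2 site.

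Klhl41, chr2:69669870-69670119, plus strand: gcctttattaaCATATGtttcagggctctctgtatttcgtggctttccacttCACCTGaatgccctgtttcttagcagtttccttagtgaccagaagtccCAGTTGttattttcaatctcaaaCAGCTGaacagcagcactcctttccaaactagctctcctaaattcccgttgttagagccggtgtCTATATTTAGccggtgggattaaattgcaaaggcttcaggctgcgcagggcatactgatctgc

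Klhl40, chr9:121777357-121777606, plus strand: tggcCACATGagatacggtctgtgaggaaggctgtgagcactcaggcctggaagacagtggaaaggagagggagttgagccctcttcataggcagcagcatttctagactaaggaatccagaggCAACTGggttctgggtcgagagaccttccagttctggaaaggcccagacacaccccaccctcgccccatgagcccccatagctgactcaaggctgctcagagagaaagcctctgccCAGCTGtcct

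Rnf7, chr9:96478676-96478925, minus strand: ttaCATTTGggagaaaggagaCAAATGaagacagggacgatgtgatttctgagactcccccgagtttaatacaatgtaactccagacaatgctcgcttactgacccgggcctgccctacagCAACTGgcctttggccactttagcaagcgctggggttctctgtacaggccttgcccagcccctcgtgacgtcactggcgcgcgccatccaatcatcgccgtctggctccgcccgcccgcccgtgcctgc

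Cul3, chr1:80340691-80340940, minus strand: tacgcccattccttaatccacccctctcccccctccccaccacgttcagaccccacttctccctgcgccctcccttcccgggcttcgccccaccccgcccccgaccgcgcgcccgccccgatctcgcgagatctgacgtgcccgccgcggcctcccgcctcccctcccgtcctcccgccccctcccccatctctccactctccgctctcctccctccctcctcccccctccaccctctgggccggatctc

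The Klhl41 window held 4 E-boxes, 1 MEF2 core and 5 CpG dinucleotides, with a GC content of 45.2%. The Klhl40 window held 3 E-boxes, no MEF2 core and 3 CpG, at 56.8% GC. The Rnf7 window also held 3 E-boxes, with 16 CpG and 58.0% GC. The Cul3 window held 23 CpG and 73.2% GC and neither motif. None of the 4 windows held TATAAA. The RefSeq start equals a GENCODE M21 transcript start for Klhl41, Klhl40 and Rnf7, while the nearest GENCODE start of Cul3 lies 210 bases further downstream. An E-box match is a weak marker, since 58.4% of the promoters of all analysed genes held one.

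Across the family, 88 of the 106 members had a RefSeq promoter, 121 in all. The median promoter of members held 15 CpG, as did that of the 10367 analysed genes with a promoter, and the median GC content was 58.8% against 59.6%. E-boxes stood in 59.5% of the members' promoters. TATAAA stood in 4.13% (5 promoters), against 6.88% of those of analysed genes. The loose MEF2 core stood in 5.79% (7 promoters), against 2.81%. Both strands were searched, and the motifs were chosen after the levels had been seen. The 6 genes with this loose match were Klhl41, Kbtbd13, Kbtbd12, Fbxo34, Fbxl15 and Klhl33. Their levels ran from the highest of the family (Klhl41, mean log2 CPM 9.10) to the lowest (Klhl33, −1.92). A link between the match and the level was not tested. Windows with 5 or fewer CpG made up 19.0% of the members' promoters, against 20.3% of those of analysed genes. In 13 of the 88 members no promoter held more than 5 CpG, and these covered the whole range of levels. They included Klhl41, Klhl31, Fbxo40 and Klhl40 at the high end, Fbxl22 with a mean log2 CPM of 4.07, and Fbxw10 and Klhl33 at the low end. The window is only as good as the annotated start. Of 119 members' windows that could be compared with GENCODE, 56 overlapped an exon of their own gene, among them those of Klhl31 and Cul7.

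As a whole, the family stood in the middle of the genes listed. Its median mean log2 CPM was 4.06, with quartiles of 2.79 and 5.47, and that of all genes was 4.03, with quartiles of 2.23 and 5.36. Of the 106 members, 56 (52.8%) were above the median of all genes, and 14 were in the top 10%, above 6.57. The range was wide, from Klhl33 at −1.92 to Klhl41 at 9.10. Fewer members than genes in general had a mean below 0, which is 1 CPM, with 5 members (4.72%) against 8.55% of all genes.

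**Figure D1:**
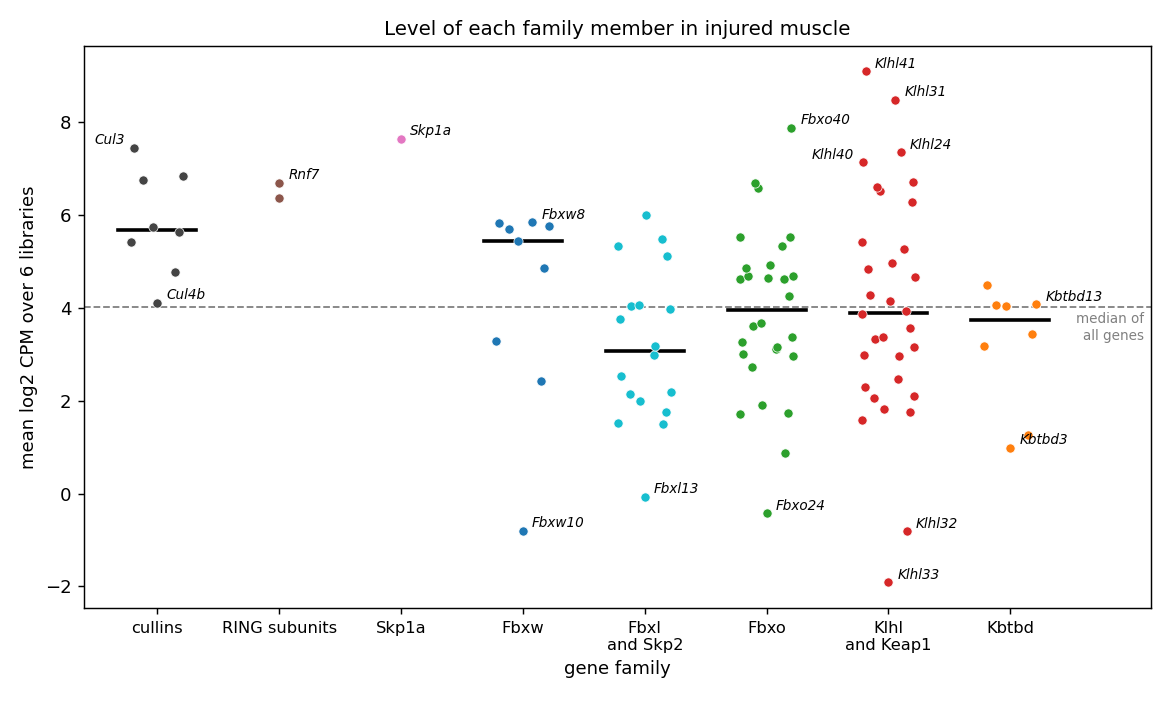
Mean log2 CPM over the 6 libraries (vertical axis) for each of the 106 members, grouped by gene family (horizontal axis). Each point is 1 gene, black bars are family medians and the dashed line is the median of all genes (4.03). All 8 cullins, both RING subunits and Skp1a lie above the line, while the F-box and BTB families spread to both sides of it.

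A long transcript yields more fragments than a short one at the same number of molecules, so levels of different genes are compared per length in what follows. The study's methods do not state whether the counts were already corrected for length. The level per kb assumes that they were not. The level per kb is the mean log2 CPM minus the log2 of the longest coding transcript in kb, from GENCODE M21. It could be computed for 105 members, all but Klhl17 (mean log2 CPM 3.37). The median level per kb was 2.34 for the members and 2.28 for the 13945 genes with a length. This small lead depended on the length used. With coding length the members' median was 3.16 against 3.42 for all genes, and with the median transcript length it was 2.485 against 2.85. On the log2 scale of level per kb the members ran from −4.38 to 7.76, and 7 were in the top 10% of genes, above 5.22.

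The scaffolds and shared subunits stood above the middle of all genes with few exceptions. All 11 of them, 8 cullins, Rbx1, Rnf7 and Skp1a, were above the median mean log2 CPM of all genes. With the longest transcript, 10 of 11 were above the median level per kb, all but Cul9. With coding length Cul7 and Cul4b were below it as well, and with the median transcript length Cul4b was. The median level per kb of these 11 genes, with the longest transcript, was 4.94. It was 2.21 for 55 F-box genes and 1.98 for 39 BTB genes with a length. Skp1a, the linker between Cul1 and F-box proteins, stood at 6.83 per kb and a mean log2 CPM of 7.65. Rnf7, the RING protein that works mainly with Cul5, stood at 6.40 per kb, and Rbx1, the RING protein of the other cullins, at 5.63. The gap between these RING genes was 0.76 per kb on the log2 scale with the longest transcript and 0.05 with the median transcript length, so their order is not firm. Rnf7 also shared 42.1% of its 31-base words with other genes, mostly with Emb, and Rbx1 shared 14.4%, mostly with its pseudogene Rbx1-ps. Reads from such stretches could have been assigned to either gene.

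Among the cullins, Cul3, Cul1 and Cul4a led. Cul3, the scaffold for BTB adaptors, had a mean log2 CPM of 7.45 and 5.21 per kb. Cul1, the scaffold for F-box proteins, had 6.76 and 5.10 per kb. These scaffolds of the main adaptor classes thus differed by 0.11 per kb, and by −1.07 per kb with the median transcript length, which turns the order. Cul4a, which works with Ddb1, had 6.84 and 4.94 per kb. Its close relative Cul4b, on the X chromosome in mammals, had 4.11 and 2.37 per kb, and the gap of 2.58 per kb in favour of Cul4a was 3.08 and 3.22 with the other lengths. Cul4a was thus 5.97-fold above Cul4b per kb of the longest transcript. Cul2 and Cul5, which use the elongin adaptors, stood at 3.69 and 3.17 per kb. Cul7 and Cul9, large atypical cullins, stood at 2.96 and 1.81 per kb. With the longest transcript, Cul9 was the only one of the 8 cullins below the median level per kb of all genes. With coding length, Cul7 (3.08), Cul4b (2.57) and Cul9 (1.86) were below the median of all genes (3.42). With the median transcript length, Cul4b (2.37) and Cul9 (1.81) were below it (2.85).

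**Figure D2:**
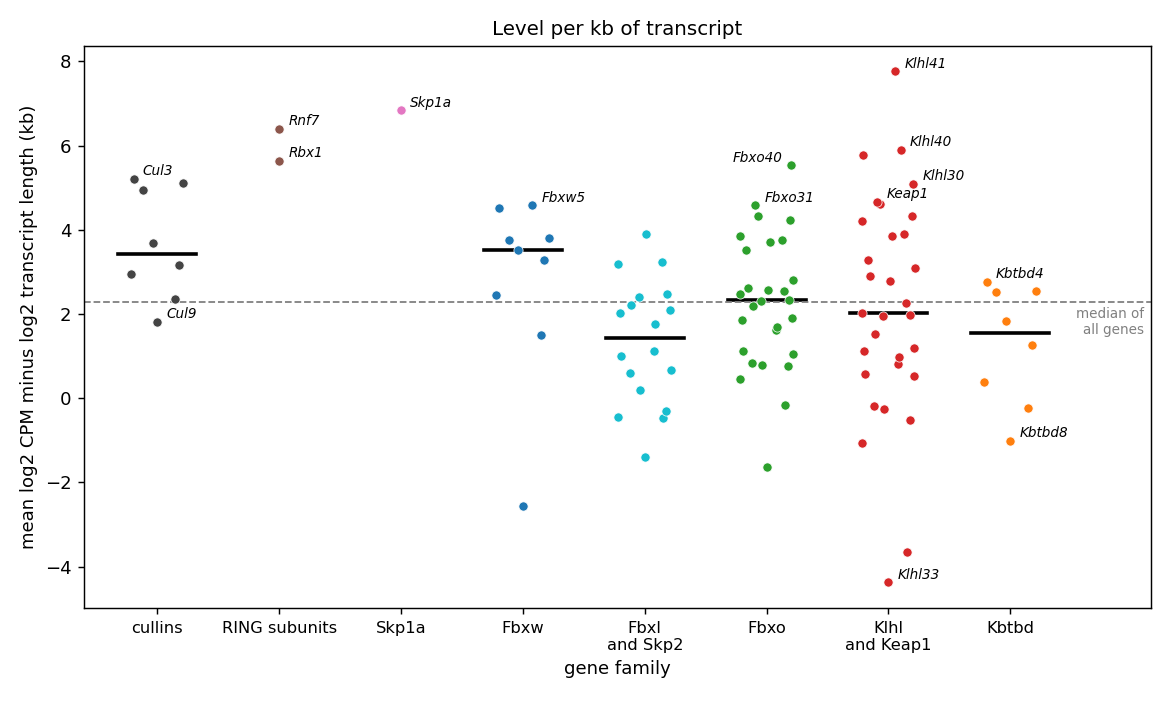
Level per kb, the mean log2 CPM minus the log2 of transcript length in kb (vertical axis), for the 105 members with a length, grouped by family (horizontal axis). Each point is 1 gene, black bars are family medians and the dashed line is the median of all genes (2.28). Klhl41 (7.76) is the highest point, followed by Skp1a (6.83) and Rnf7 (6.40), and Klhl33 (−4.38) is the lowest.

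The F-box proteins carry the substrate choice of Cul1 ligases. Among the genes analysed, the WD-repeat class (Fbxw) had the highest family median of the adaptors. This median covers only 9 of the 24 Fbxw genes that GENCODE M21 names. The 9 Fbxw genes had a median level per kb of 3.53, the 28 Fbxo genes 2.32 and the 18 Fbxl genes, counting Skp2, 1.44. Of the Fbxw genes, 6 of 9 were above the median mean log2 CPM of all genes, of the Fbxo genes 14 of 28 and of the Fbxl genes 6 of 18.

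The most abundant Fbxw genes were close in mean log2 CPM and less so per kb. Fbxw8, which works with Cul7, had a mean log2 CPM of 5.85 (3.53 per kb), but shared 35.5% of its words with other genes. Fbxw5 had 5.84 (4.58 per kb) and Fbxw2 5.70 (4.52 per kb). Fbxw11, one of the β-TrCP proteins that target β-catenin and IκB, had 5.77 (3.76 per kb). Fbxw7, which targets cyclin E and Myc, had 5.45 (3.29 per kb). The lowest were Fbxw9 at 2.43 and Fbxw10 at −0.80.

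The leucine-rich repeat class (Fbxl) had few abundant members. Fbxl17, which takes apart wrongly paired BTB dimers, had 5.48 (3.18 per kb). Fbxl5, the iron sensor that targets IRP2, had 5.33 (3.24 per kb). Skp2, which targets the cell cycle inhibitor p27, had 2.16 and −0.47 per kb, at percentile 15.2 of all genes per kb. The lowest of the class were Fbxl16 at 1.51 and Fbxl13 at −0.07.

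Fbxo40 was the highest of the F-box genes by mean log2 CPM and per kb with each length used. It is a muscle gene whose protein targets the insulin signalling adaptor IRS1, and it had a mean log2 CPM of 7.89 and 5.53 per kb. With the longest transcript it was the only one of the 55 F-box genes in the top 10% of all genes per kb. By mean log2 CPM, 3 Fbxo genes were in the top 10%. With coding length Fbxo40 stood at 6.80 against 6.10 for Fbxo31. With the median transcript length it stood at 5.95 against 5.65 for Fbxl20. Next in the Fbxo class were Fbxo31, known for targeting cyclin D1, at 6.70 (4.58 per kb), and Fbxo3 at 6.58 (4.33 per kb). Fbxo30, also named MUSA1 and tied to muscle atrophy, was at 4.64 and 2.30 per kb, 3.23 per kb below Fbxo40. That gap was 3.32 with coding length and 3.23 with the median transcript length. Fbxo21 was at 3.61 (1.62 per kb) and Fbxo7, known from inherited parkinsonism, at 3.27 (0.84 per kb). The lowest Fbxo genes were Fbxo27 at 0.87 and Fbxo24 at −0.43.

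The BTB-kelch genes held both the highest and the lowest mean log2 CPM. Per kb, Klhl41 was also the highest member with the longest and with the median transcript length, but with coding length it stood at 8.24, behind Skp1a (8.68) and Rnf7 (8.26). The 31 Klhl genes with a length (Keap1 among them) had a median level per kb of 2.03. Of these 31, 3 were in the top 10% of genes, about the share of all genes. Klhl41, which protects the thin-filament protein nebulin and is mutated in nemaline myopathy, had a mean log2 CPM of 9.10 and 7.76 per kb, above 98.3% of genes per kb. Klhl40, also a nemaline myopathy gene, had 7.14 and 5.89 per kb. Klhl31, a gene of skeletal and heart muscle, had 8.48 and 5.78 per kb. Klhl30 had 6.72 and 5.10 per kb. Klhl41 was above its scaffold Cul3 by 2.54 per kb, by 1.99 with coding length and by 1.60 with the median transcript length. It was above Klhl40 by 1.87 with the longest transcript and by 1.99 with coding length. Of the words of Klhl40, 18.2% were shared with other genes, mostly with Gm47108.

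The other Klhl genes named here covered a wide range of levels. Keap1, which holds the antioxidant factor Nrf2 down, had a mean log2 CPM of 6.52 and 4.67 per kb. Klhl24 had 7.36, but its long transcript of 8172 bases put it at 4.33 per kb. Its level moved strongly with the length used, to 6.51 with coding length and to 7.61 with the median transcript length of 840 bases, where only Klhl41 of the 105 members was higher. Klhl9 and Klhl13, partners in cell division, had 4.22 and 3.10 per kb. Klhl22 had 3.89, Klhl12, which acts on the COPII coat, 2.91 and Klhl20 2.26 per kb. Klhl38 had a mean log2 CPM of 3.93, with 63.7% of its words shared, and Klhl34 had 2.98. Klhl6, known from B cells, had 2.06. Klhl3, which targets WNK kinases in the kidney, had 1.77 and −1.07 per kb, 2.59 per kb below its close relative Klhl2. The lowest members of all were Klhl32 at −0.81 and Klhl33 at −1.92.

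The 8 Kbtbd genes covered a narrower range, from Kbtbd3 at 0.98 to Kbtbd2 at 4.49 in mean log2 CPM, with a median level per kb of 1.54. Kbtbd2, which targets a subunit of PI3-kinase, had 2.54 per kb. Kbtbd13, mutated in nemaline myopathy, had 4.08 and 2.51 per kb, and Kbtbd12 had 4.04 and 1.82 per kb. Kbtbd13 thus stood near the middle of all genes, well below the nemaline myopathy genes Klhl40 and Klhl41. Kbtbd4 had 4.06 and 2.77 per kb, the highest of the class per kb, but 65.3% of its words were shared, mostly with Ptpmt1, so its level is uncertain. The lowest per kb was Kbtbd8 at −1.02.

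**Figure D3:**
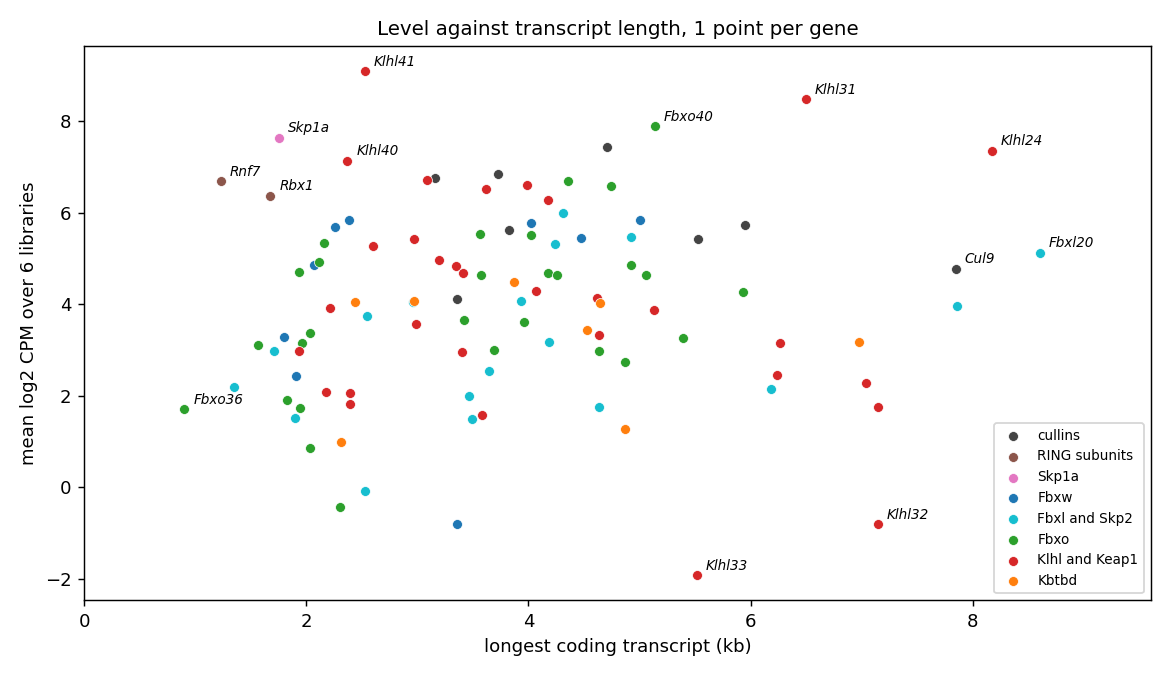
Mean log2 CPM over the 6 libraries (vertical axis) against the length of the longest coding transcript in kb (horizontal axis), 1 point for each of the 105 members with a length, coloured by family. No clear trend with length is seen. Klhl41, Skp1a, Rnf7 and Klhl40 combine short transcripts with high levels, while Klhl31, Klhl24 and Fbxo40 reach high levels with long ones.

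The level varied little with length over the members (Spearman rho 0.12 over 105 genes, and 0.06 over all genes), given as a description across genes, which are not independent and share the same libraries. Sharing of sequence was slight in most members. The median member shared 0.34% of its words with other genes, 45 members shared none, and 10 shared more than 20%.

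The genes that run the cullin-RING cycle were all listed where a list of 4 steps was searched. NEDD8, a small modifier that switches cullins on, and the enzymes that add and remove it made 11 of 11 genes, with a median mean log2 CPM of 5.13. Within them Ube2m, the NEDD8 carrier for Rbx1-type ligases, had 6.50 per kb and Ube2f, the carrier for Rnf7, had 3.08 per kb. The COP9 signalosome, which takes NEDD8 off again, was listed with 9 of 9 subunits, at a median of 6.26. Of the exchange factors, Cand2, a muscle form, had 4.09 per kb and Cand1, the general form, 2.19 per kb. The 7 enzymes that pass ubiquitin on had a median of 6.88. Of the adaptors of the other cullins, Ddb1, the partner of Cul4a and Cul4b, had 5.84 per kb, and Vhl, a substrate receptor of Cul2, had 2.36 per kb.

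The members do not cover every gene of these families. GENCODE M21 names 135 genes that the same rule would take, of which 104 were analysed here and 31 were not. The members Fbxo18 and Klhl17 carry symbols that GENCODE M21 does not use, so they are not among the 104. The share analysed was 8 of 8 for cullins, 18 of 19 for Fbxl, 31 of 37 for Klhl, 27 of 35 for Fbxo, 8 of 9 for Kbtbd and 9 of 24 for Fbxw. Since a gene had to exceed 1 CPM in 3 or more libraries to enter the table, the medians describe genes that passed this filter. For the 5 members with a mean below 0, the filter also bears on the spread. If at least 3 libraries were above 0 on the log2 scale, the other 3 averaged below −3.83 for Klhl33, below −1.62 for Klhl32 and below −0.14 for Fbxl13. This holds only if the filter and the mean are on the same scale, since normalization after the filter shifts the values, and the libraries concerned are not known.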

How the data were processed

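Bulk poly(A) RNA sequencing was done on injured quadriceps of 3 WT and 3 ΔdblGATA mice. Per the study's methods, the authors pseudoaligned paired-end reads with Kallisto, assigned genes with ensembldb, computed CPM with edgeR, kept genes with CPM above 1 in at least 3 samples, log transformed and normalized them by TMM, and fitted limma. The submitters' processing notes name GRCm39 (mm39). The transcript index is not given in the sources used here.

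The deposited table holds, per gene, the authors' mean log2 CPM over all 6 libraries, which is the only column used. Its other columns hold the authors' own comparison of the genotypes (log2 fold change, moderated t, p-value, adjusted p-value and log odds) and were not used. Values per mouse were not analysed here, so no genotype comparison, test or replicate error is given. The depth is unknown.

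Symbols were matched to GENCODE M21 (GRCm38), 487 of them through synonyms. Shared sequence is the percent of 31-base words of the longest transcript found in other genes. Promoters are from RefSeq. Scripts ran in Python 3.11.15 with pandas 2.3.3 and were tested on simulated data. The members and lists were chosen with earlier results of these data known. Named genes were all cullins, Skp1a, Skp2, Rbx1, Rnf7 and Keap1, per adaptor family the 3 highest and 2 lowest by mean log2 CPM and the 2 highest per kb, and members with known roles. A gene that this rule names is not reported here. Other genes named, and all pairs of genes compared, were chosen after their values were seen. Alternatives covered the length used, a minimum level, the gene list and shared sequence.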

Additional observations from a re-analysis of the deposited data

How the results depend on the processing

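The members' median of mean log2 CPM (4.06) was 4.07 with Fbxo32 included and 4.15 over genes at 1 log2 CPM or more. It was 4.10 with F-box and BTB genes of other symbols added, which made 130 genes and took in the numbered Kctd genes. Without members sharing more than 20% of their words it was 4.07. The members above the median of all genes numbered 56 of 106. They were 57 of 107 with Fbxo32 included, and 59 of 106 were above the mean of all genes (3.76). Over genes at 1 log2 CPM or more they were 47 of 99, with the median of all genes taken again at that limit. The median level per kb (2.34) was 3.16 with coding length, 2.485 with the median transcript length, 2.46 over genes at 1 log2 CPM or more, 2.35 with Fbxo32 and 2.30 without members that share words. Between families, 2 of 28 pairs changed order when means replaced medians (Cul with Fbxw, Fbxl with Kbtbd), 1 with the median transcript length (Fbxl with Kbtbd) and 0 with coding length. Of the 10 highest members per kb, 8 stayed among the 10 highest with either other length. The median transcript length and the exclusion by shared words were chosen after seeing the data. No paired analysis was possible because the column used holds 1 mean over all 6 libraries, and for the same reason no library could be left out. The unknown depth and missing replicate error limit every value.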

Other observations

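Genes that belong to these families by domain but carry other symbols had levels in the same range. Spop, a BTB adaptor of Cul3, had a mean log2 CPM of 7.95 and 6.34 per kb, above Cul3 itself (5.21 per kb), while its relative Spopl had 4.63 and 1.90 per kb. Ivns1abp, a BTB-kelch gene, had 7.51 and 5.70 per kb. Btrc, the second β-TrCP gene, had 4.41 and 2.81 per kb, below Fbxw11 at 3.76 per kb. Enc1 had 4.07. Ccnf, the cyclin F gene, was the lowest of these 7 genes, at 1.56 and −0.48 per kb. These are values without replicate error, and no difference among them was tested.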
